A study of Homo sapiens with 8 samples.

Results

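The metallothionein genes and MTF1, the transcription factor gene that controls them, were followed across an array study of PTK7 knockdown in lung adenocarcinoma cells. The 9 genes listed were MT1X, MT2A, MT1E, MT1F, MT1G, MT1M, MT1A, MT3 and MTF1. A probe set was taken for a gene where the array annotation gave that symbol alone, and the brightest one over the 8 arrays was kept. This found 8 of the 9 genes, among 18404 genes read in this way; MT1A was not analysed here. The probe sets were thus chosen by their mean level over all 8 arrays, which mattered only for MT2A, whose 2 probe sets averaged 12.26 and 11.66 on the log2 scale. The family itself was put forward with earlier results of these data known, so the tests below describe these arrays and are not independent evidence.

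The established lines NCI-H1299 (H1299) and NCI-H2009 (H2009) contributed 4 arrays apiece, 1 per lentiviral hairpin. The hairpins were PTK7-1 and PTK7-2, both against PTK7, which encodes a catalytically inactive receptor-like protein of the Wnt and planar polarity pathways, and the controls GFP and LUC, the second against luciferase. All cells, controls included, spent 2 days with virus and 2 days in puromycin before harvest on day 4 after infection. Repeat cultures are not mentioned in the labels, and p-values therefore cover only the spread among these arrays. In the knockdown and line comparisons that spread includes the difference between the 2 hairpins of a group. In the hairpin comparisons it is how far hairpin differences vary between the lines. Neither separates technical from biological spread. Because each group pairs 2 hairpins, a difference between hairpins of the same target cannot be told apart from a difference between single cultures within a line.

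Metallothioneins are small cytosolic proteins rich in cysteine that bind zinc, copper and cadmium. Their genes are switched on by MTF1, which senses free zinc and binds metal response elements in their promoters, and they also respond to oxidative stress and glucocorticoids. MT2A, MT1X, MT1E, MT1F, MT1G and MT1M belong to the broadly inducible group, while MT3 is best known from brain and responds little to metals. In the RefSeq order of chromosome 16 (GRCh38.p14), MT3, MT2A, MT1E, MT1M, MT1A, MT1F, MT1G and MT1X follow each other in one cluster with further copies between them; MTF1 lies on chromosome 1. The transcripts are so alike that a probe set may bind RNA of several copies, and how much of a signal came from the named gene was not tested.

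The metal response element has the core TGCACNC or TGCGCNC, where N is any base. Promoters of the members were available for MT2A, MT1X and MTF1. The 250 bases before the start of MT2A and MT1X are shown because both passed the comparison of the PTK7 hairpins described below, with each match to a core on either strand in capitals (RefSeq, GRCh38.p14, plus strand, chr16:56608334-56608583 for MT2A and chr16:56682220-56682469 for MT1X).
MT2A: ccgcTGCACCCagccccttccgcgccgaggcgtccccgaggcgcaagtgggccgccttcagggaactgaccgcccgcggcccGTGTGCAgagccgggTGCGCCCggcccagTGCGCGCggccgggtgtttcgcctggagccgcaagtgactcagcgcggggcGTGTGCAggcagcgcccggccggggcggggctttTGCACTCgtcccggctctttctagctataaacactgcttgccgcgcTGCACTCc
MT1X: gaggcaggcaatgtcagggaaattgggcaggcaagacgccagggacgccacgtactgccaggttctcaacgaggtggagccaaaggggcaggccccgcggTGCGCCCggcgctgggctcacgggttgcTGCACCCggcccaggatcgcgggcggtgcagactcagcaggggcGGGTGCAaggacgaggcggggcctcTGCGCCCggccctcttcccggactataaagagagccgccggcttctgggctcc
MT2A held 7 matches in this window and MT1X held 4. Matches do not overlap each other in these windows. Of 35116 promoters of the same length, 24.8% held at least 1 match, 0.370% held at least 4 and 0.0313% held at least 7. The MTF1 promoter held 0 matches, which says only that these letters are not in that window. A match is a description of the letters, and binding was not measured.

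PTK7 itself had log2 values of 5.63 with PTK7-1 and 5.53 with PTK7-2 in H1299, against 5.73 with GFP and 6.03 with LUC. In H2009 it had 5.63 with PTK7-1 and 5.94 with PTK7-2, against 6.64 with GFP and 6.86 with LUC. Both PTK7 hairpins were therefore below both controls in each line. With the lines together the difference from the controls was -0.68 ± 0.19 for PTK7-1 and -0.58 ± 0.19 for PTK7-2 (limma adjusted p = 0.165 and 0.176). Here and below an error after ± is the standard error of the fit unless marked SD. The hairpins did not differ detectably in PTK7 signal, with PTK7-1 minus PTK7-2 at -0.10 ± 0.22 (limma adjusted p = 0.911). That value joins opposite signs, 0.10 in H1299 and -0.31 in H2009, on single arrays. The differences from the control mean were also smaller in H1299, at -0.26 for PTK7-1 and -0.35 for PTK7-2, where the controls differed by 0.30. In H2009 they were -1.11 and -0.81. As for the identity of the lines, the 5 epithelial markers did not agree in H1299. EPCAM, CDH1 and KRT19 lay between 3.32 and 5.66 on the H1299 arrays and above 11 on every H2009 array, while KRT8 and KRT18 lay between 8.68 and 11.6 in H1299 and between 11.3 and 11.7 in H2009. Of the 3 lung adenocarcinoma lineage markers, NKX2-1 and NAPSA were lower on both control arrays of H1299 than on those of H2009. SFTPB went the other way and was dim on all arrays, between 3.94 and 4.37. NKX2-1 lay between 4.96 and 5.64 in H1299 and between 6.89 and 8.36 in H2009. Leukocyte, fibroblast and endothelial markers averaged between 3.60 and 4.96 on all arrays. These averages hide COL1A1, a fibroblast marker that lay between 6.09 and 6.93.

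The 2 PTK7 hairpins lay on opposite sides of the controls for most inducible metallothioneins. PTK7-1 gave the lowest value of the line for 7 of the 8 genes in both lines, all but MT3, beside 11.3% of all genes. PTK7-2 gave the highest value in both lines for 4 of the 8, MT2A, MT1X, MT1E and MT1G, beside 12.3% of all genes. MT2A had log2 values of 11.91 with PTK7-1 and 12.67 with PTK7-2 in H1299, against 12.33 with GFP and 12.34 with LUC. In H2009, MT2A had 11.82 with PTK7-1 and 12.58 with PTK7-2, against 12.23 with GFP and 12.20 with LUC. The controls differed by 0.02 in H1299 and 0.03 in H2009, and the PTK7 hairpins fell on either side of them. MT1X showed the widest spread of the family. It had 9.25 with PTK7-1 and 11.35 with PTK7-2 in H1299, against 10.55 with GFP and 10.73 with LUC. In H2009, MT1X had 9.64 with PTK7-1 and 10.79 with PTK7-2, against 10.44 with GFP and 10.57 with LUC. PTK7-1 was again lowest and PTK7-2 highest in each line, and the gap between them was 4.30-fold in H1299 and 2.22-fold in H2009, on single arrays and without a test of the difference between lines.

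**Figure D1:**
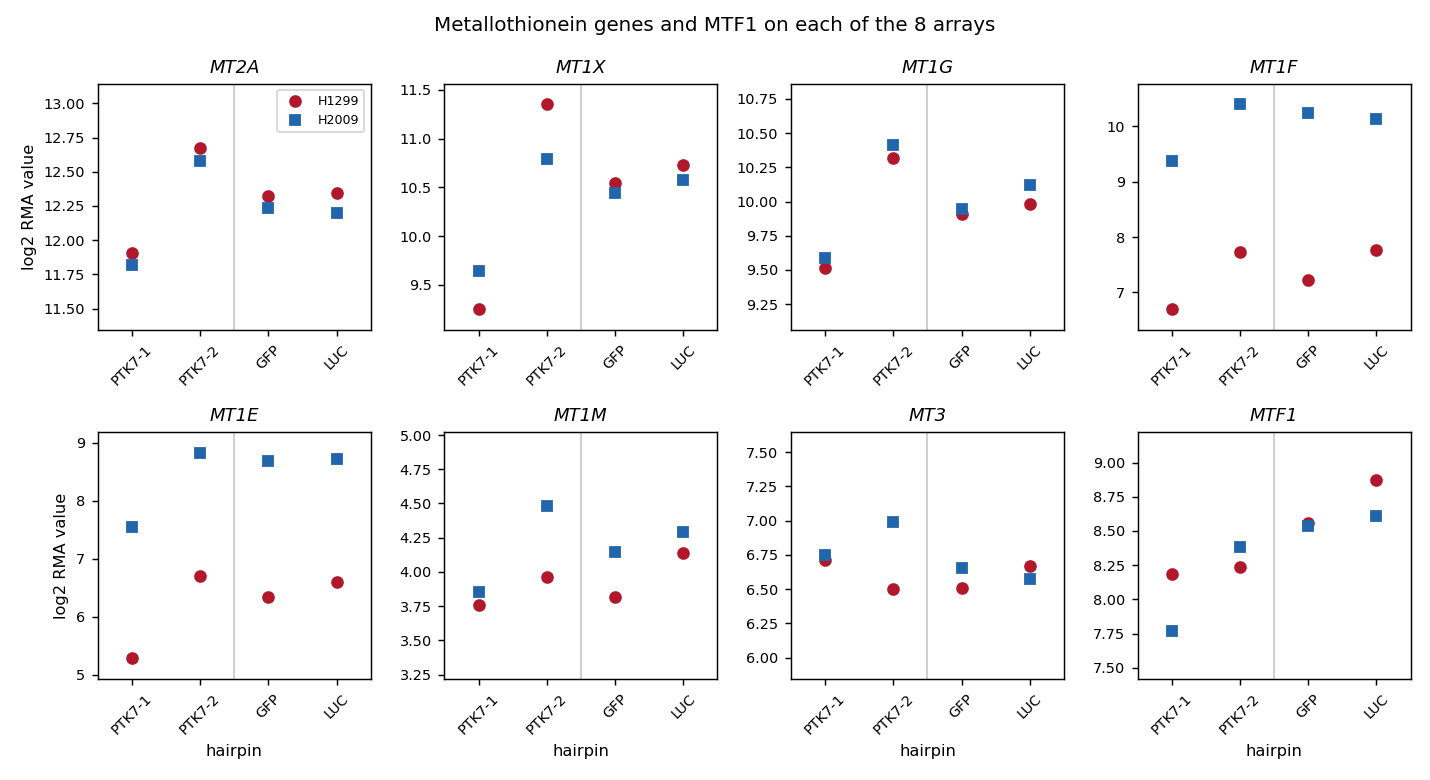
The 8 measured genes on each array, with the log2 RMA value on the vertical axis (scaled per gene) and the hairpin on the horizontal axis; each point is 1 array, with red circles for H1299 and blue squares for H2009. For MT2A, MT1X, MT1G, MT1F, MT1E and MT1M the PTK7-1 array is the lowest of its line, whereas for MTF1 both PTK7 arrays lie below both control arrays.

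MT1G kept the same order in both lines. It had 9.51 with PTK7-1 and 10.31 with PTK7-2 in H1299, against 9.91 with GFP and 9.98 with LUC, and in H2009 it had 9.59 with PTK7-1 and 10.41 with PTK7-2, against 9.95 with GFP and 10.12 with LUC. MT1E had 5.28 with PTK7-1 and 6.70 with PTK7-2 in H1299, against 6.33 with GFP and 6.61 with LUC. In H2009, MT1E had 7.54 with PTK7-1 and 8.83 with PTK7-2, against 8.68 with GFP and 8.72 with LUC. The PTK7-1 arrays of MT1E thus lay more than a log2 unit below all others of their line, while PTK7-2 stood only slightly above the controls. MT1F had 6.69 with PTK7-1 and 7.73 with PTK7-2 in H1299, against 7.23 with GFP and 7.77 with LUC. In H2009, MT1F had 9.37 with PTK7-1 and 10.40 with PTK7-2, against 10.23 with GFP and 10.14 with LUC. In H1299 the PTK7-2 array of MT1F lay between the controls, so PTK7-2 was its highest array in H2009 and not in H1299. MT1M was dim, with a mean of 4.06 that was at or above that of 20.1% of genes, and RMA compresses differences at such levels. It ranged from 3.76 to 4.48, with PTK7-1 lowest in both lines and PTK7-2 highest in H2009.

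Compared directly, 5 of the 8 measured genes were lower with PTK7-1 than with PTK7-2, namely MT1E, MT1X, MT1G, MT2A and MT1F. Over all 18404 genes, 3.73% passed in this comparison and 1.79% passed in the lower direction. With the lines together, PTK7-1 minus PTK7-2 was -1.63 ± 0.21 for MT1X, a 3.09-fold difference (limma adjusted p = 0.0116). MT1E differed 2.55-fold, at -1.35 ± 0.13 (limma adjusted p = 0.00634), and MT1F 2.05-fold, at -1.03 ± 0.17 (limma adjusted p = 0.0217). MT1G stood at -0.81 ± 0.12 and MT2A at -0.76 ± 0.12 (limma adjusted p = 0.0184 and 0.0214). The other 3 genes did not pass. MT1M stood at -0.42 ± 0.15 and MTF1 at -0.33 ± 0.17 (limma adjusted p = 0.188 and 0.351), and MT3 at -0.01 ± 0.17 (limma adjusted p = 0.986). The median over the 7 metallothioneins was -0.81, beside -0.02 over all genes. The count of 5 depended on single arrays, which leave 1 array of a hairpin when dropped. It was 0 without PTK7-1 in H1299, 1 (MT1E) without PTK7-2 in H1299, 2 (MT1X and MT1E) without PTK7-1 in H2009, and 3 (MT1X, MT1E and MT1F) without GFP in either line. Without PTK7-2 in H2009 it was 4, with MT1F not passing. In the fit without PTK7-1 in H1299, 0 of all genes passed. Omitting a control array leaves the estimate of this difference unchanged by design, so those omissions do not test its sign. The sign stayed negative for all 5 genes when any PTK7 array was left out. For each of these genes PTK7-1 lay below PTK7-2 in both lines.

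Against the controls, MT1E and MT1X were lower with PTK7-1, and 0 of the 8 genes passed with PTK7-2. With PTK7-1, MT1E was 2.25-fold lower at -1.17 ± 0.12 and MT1X 2.18-fold lower at -1.13 ± 0.18 (limma adjusted p = 0.00849 and 0.0380). Among all genes 1.23% passed for PTK7-1 and 0.978% passed as lower. MT1F, at -0.81 ± 0.15, just missed the threshold (limma adjusted p = 0.05003). MT1G at -0.44 ± 0.11 and MT2A at -0.41 ± 0.11 did not pass (limma adjusted p = 0.116 and 0.138). The MT1X call was lost without any one of the 4 control arrays or the 2 PTK7-1 arrays (limma adjusted p = 0.0791 to 0.266). The MT1E call was lost without GFP or PTK7-1 of either line (0.0521 to 0.119), so the count of 2 was between 0 and 2 over the omissions. With PTK7-2, MT1X stood at 0.50 ± 0.18, MT1G at 0.37 ± 0.11, MT2A at 0.35 ± 0.11, MT1F at 0.22 ± 0.15 and MT1E at 0.18 ± 0.12. The lowest limma adjusted p of these was 0.134, and an unadjusted p under 0.05 was reached by 3 of the 8 genes, MT1G, MT2A and MT1X, all higher, beside 8.32% of all genes in that direction. For PTK7-2, 2.15% of all genes passed and 0.391% passed as higher. Both comparisons share the GFP and LUC arrays. With a trended prior for the spread, 5 of the 8 genes passed for PTK7-1 and 1, MT2A, passed for PTK7-2.

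**Figure D2:**
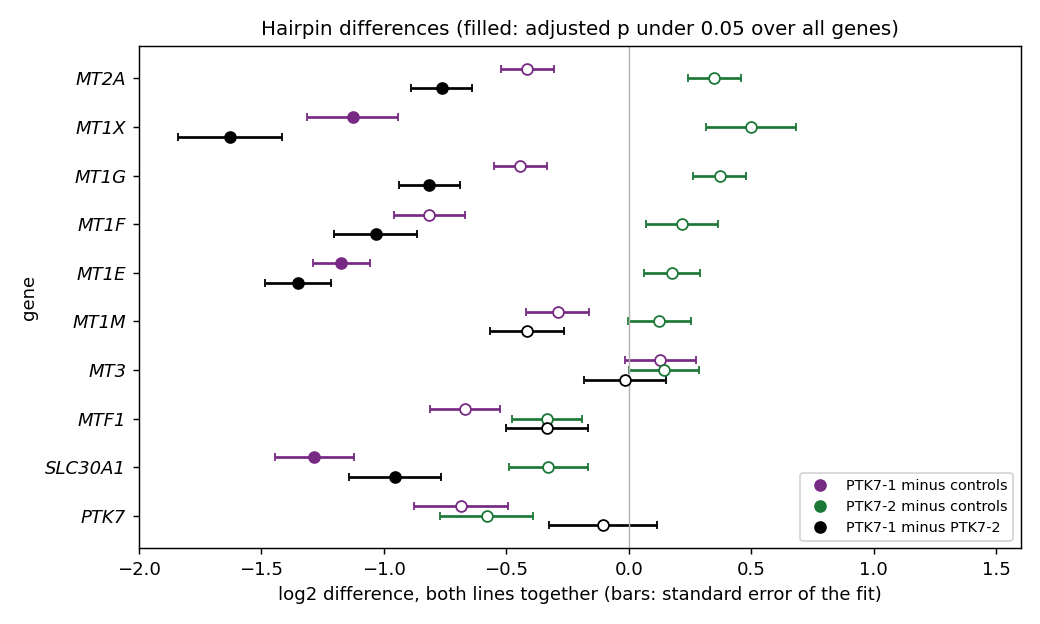
Log2 differences with both lines together for the 8 measured genes, SLC30A1 and PTK7 (vertical axis), with purple for PTK7-1 minus controls, green for PTK7-2 minus controls and black for PTK7-1 minus PTK7-2; bars are standard errors of the fit, and filled points passed an adjusted p of 0.05 over all genes. The black points of MT1X, MT1E, MT1F, MT1G and MT2A are filled and negative, and the green points of these genes lie above 0 and are open.

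Averaged over the PTK7 hairpins, the metallothioneins did not differ detectably from the controls. Of the 7, 6 were lower, beside 8141 of all 18404 genes, and their median difference was -0.08, beside 0.02 over all genes. MT2A averaged 12.29 ± 0.54 with PTK7 hairpins and 12.34 ± 0.01 with control hairpins in H1299 (SD, n = 2 each). In H2009 it averaged 12.20 ± 0.54 with PTK7 hairpins and 12.22 ± 0.02 with control hairpins (SD, n = 2 each). The PTK7 arrays surrounded the controls, and the knockdown difference averaged over the lines was -0.03 ± 0.22 for MT2A, -0.31 ± 0.46 for MT1X and -0.50 ± 0.37 for MT1E (limma adjusted p = 0.978, 0.871 and 0.720). In this comparison 0 of the 8 genes and 0% of all genes passed. An unadjusted p under 0.05 was reached by 1 of the 8, MTF1, and by 9.88% of all genes. Within H1299 0 of the 8 passed, beside 0.00543% of all genes, with an unadjusted p under 0.05 for 1 of the 8 and 7.48% of all genes. Within H2009 0 of the 8 passed, beside 0%, with an unadjusted p under 0.05 for 0 of the 8 and 7.98% of all genes. The test of the difference between the lines gave 0 of the 8, again beside 0%, with an unadjusted p under 0.05 for 0 of the 8 and 5.17% of all genes. With the hairpin as a replicate block, 0 of the 8 passed in each of these comparisons. As a background, GFP minus LUC gave 0 of the 8 genes and 0% of all genes, with an unadjusted p under 0.05 for 0 of the 8 and 3.65% of all genes, and a median over the 7 metallothioneins of -0.16.

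MTF1 lay low with both PTK7 hairpins. It had 8.19 with PTK7-1 and 8.24 with PTK7-2 in H1299, against 8.56 with GFP and 8.87 with LUC. In H2009, MTF1 had 7.77 with PTK7-1 and 8.39 with PTK7-2, against 8.54 with GFP and 8.61 with LUC. Both PTK7 arrays lay below both control arrays in each line, an order seen in 4.53% of all genes and in 1 of the 8 listed here. The averaged knockdown difference of -0.50 ± 0.15 did not pass (limma adjusted p = 0.336), nor did it with a replicate block for the hairpin (0.116). Against the controls it stood at -0.67 ± 0.14 for PTK7-1 and -0.33 ± 0.14 for PTK7-2 (limma adjusted p = 0.0810 and 0.298). MT3, whose protein is linked to zinc handling in neurons, had 6.71 with PTK7-1 and 6.50 with PTK7-2 in H1299, against 6.51 with GFP and 6.67 with LUC. In H2009 it had 6.75 with PTK7-1 and 6.99 with PTK7-2, against 6.65 with GFP and 6.57 with LUC. For MT3, PTK7-1 lay above both controls in each line, while PTK7-2 was lowest in H1299 and highest in H2009. PTK7-1 minus controls was 0.13 ± 0.14 for MT3 and did not pass (limma adjusted p = 0.840).

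The array also read 7 of 10 listed genes that are further copies of the family, MT1B, MT1H, MT4, MT1HL1 and the pseudogenes MT1JP, MT1DP and MT1IP. Each had its lowest value with PTK7-1 and its highest with PTK7-2 in both lines, as did 4 of the 8 genes above, MT1X, MT2A, MT1E and MT1G; 2.86% of all genes had this order. PTK7-1 minus PTK7-2 passed for 3 of the 7, all lower, beside 3.73% of all genes in either direction and 1.79% as lower. They were MT1JP at -0.98 ± 0.13, MT4 at -0.66 ± 0.13 and MT1DP at -0.68 ± 0.14 (limma adjusted p = 0.0131, 0.0360 and 0.0448). MT4 and MT1H were the dimmest of the 7 copies, with means of 4.96 and 5.54, at or above those of 32.4% and 40.1% of genes. MT1JP was singled out after its values were seen. It had 5.44 with PTK7-1 and 6.56 with PTK7-2 in H1299, against 5.81 with GFP and 5.998 with LUC. In H2009 it had 5.49 with PTK7-1 and 6.34 with PTK7-2, against 5.77 with GFP and 6.02 with LUC. Its call was lost without either PTK7-1 array (limma adjusted p = 0.122 in H1299 and 0.0752 in H2009) and without PTK7-2 in H1299 (0.0566). The calls of MT4 and MT1DP were lost in 7 of the 8 omissions, all but that of PTK7-2 in H2009. MT4 is known from stratified epithelium, and the pseudogenes resemble their coding neighbours, and whether these probe sets read separate RNA was not tested.

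**Figure D3:**
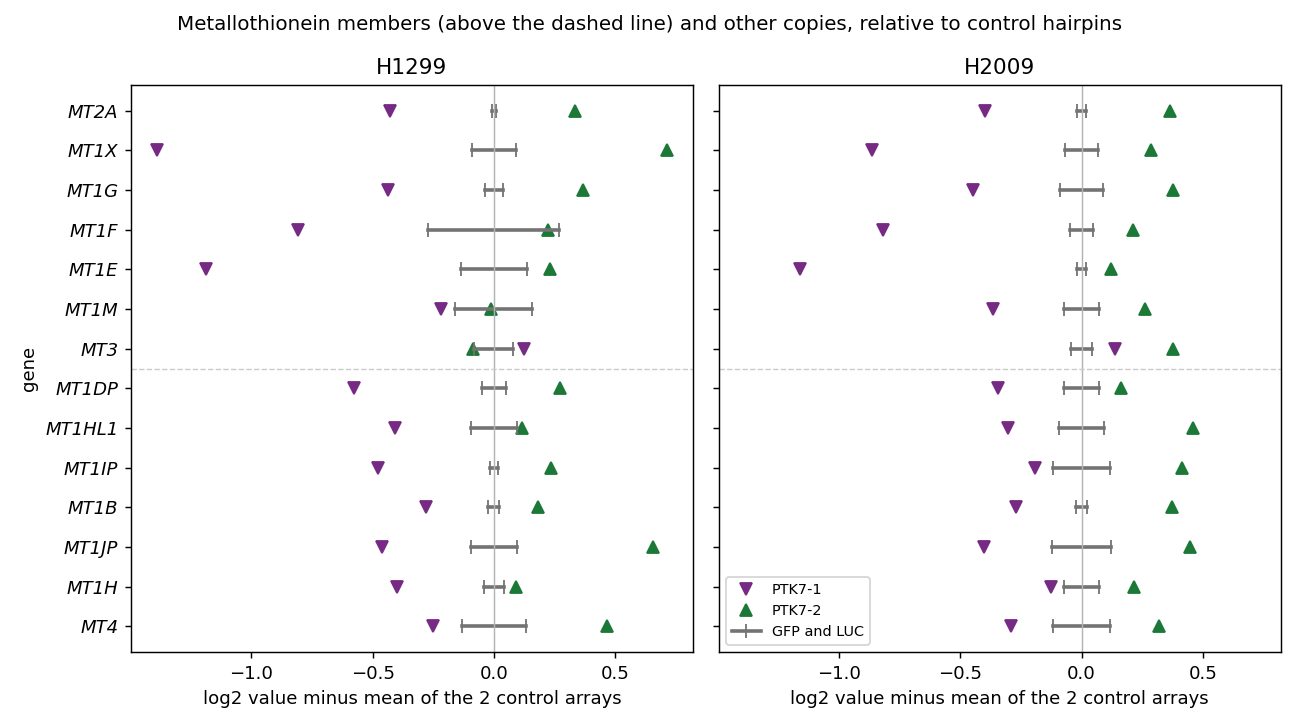
Log2 value minus the mean of the 2 control arrays of the line (horizontal axis) for 7 metallothioneins and 7 further copies (vertical axis), with H1299 on the left and H2009 on the right; purple triangles are PTK7-1, green triangles are PTK7-2, and the grey bar spans GFP and LUC. The purple triangle lies left of the grey bar and of the green triangle for 13 of the 14 genes in both lines, with MT3 as the exception.

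Under control hairpins, 2 of the 8 genes passed between the lines, a share near that of all genes passing in either direction. Both of them, MT1F and MT1E, were lower in H1299 than in H2009. MT1F had 7.23 with GFP and 7.77 with LUC in H1299, against 10.23 with GFP and 10.14 with LUC in H2009. It was 6.43-fold lower in H1299, with H1299 minus H2009 at -2.68 ± 0.43 (limma adjusted p = 0.00407). MT1E, at 6.33 and 6.61 in H1299 against 8.68 and 8.72 in H2009, was 4.70-fold lower at -2.23 ± 0.52 (limma adjusted p = 0.0196). Of all genes, 24.8% passed in this comparison in either direction and 12.3% passed as lower in H1299, the backgrounds for the 2 of 8. Differences of the other 6 genes lay between -0.24 and 0.14 and did not pass, with a lowest limma adjusted p of 0.525, for MT1M. MT2A, at 12.33 and 12.34 in H1299 against 12.23 and 12.20 in H2009, differed by 0.12 ± 0.31, and MT1X by 0.13 ± 0.65. The call for MT1E was lost, and the count was 1, without any one of the 4 control arrays. Although MT1E and MT1F started from such different levels, PTK7-1 minus PTK7-2 was alike in size in the 2 lines, at -1.42 in H1299 and -1.28 in H2009 for MT1E and at -1.03 in both for MT1F, each from single arrays and without a test.

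Among genes of zinc handling, SLC30A1, the plasma membrane zinc exporter and a known MTF1 target, was low with PTK7-1. It had 5.54 with PTK7-1 and 6.62 with PTK7-2 in H1299, against 6.21 with GFP and 7.16 with LUC. In H2009, SLC30A1 had 5.99 with PTK7-1 and 6.82 with PTK7-2, against 7.16 with GFP and 7.66 with LUC. PTK7-1 was lowest in both lines, while PTK7-2 lay between the controls in H1299 and below them in H2009. PTK7-1 minus controls was -1.28 ± 0.16, a 2.43-fold lower value, and PTK7-1 minus PTK7-2 was -0.95 ± 0.19 (limma adjusted p = 0.0172 and 0.0386). GFP was also below LUC in each line, at -0.73 ± 0.19, without passing (limma adjusted p = 1.00). The first call was lost without PTK7-1 in either line (limma adjusted p = 0.151 in H1299 and 0.152 in H2009), LUC in either line (0.0706 and 0.0601) or GFP in H2009 (0.0532). The second was lost without PTK7-1 in either line (0.197 in H1299 and 0.174 in H2009), LUC in either line (0.0675) or PTK7-2 in H1299 (0.135). Its promoter held 1 match to the metal response element core, as 24.8% of promoters held at least 1.

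Of 6 listed MTF1 targets other than metallothioneins, SLC30A1 alone passed in PTK7-1 minus controls and in PTK7-1 minus PTK7-2. It was also the only one of 10 zinc exporters past the threshold in either of these 2 comparisons. Among all genes 1.23% passed in PTK7-1 minus controls and 3.73% in PTK7-1 minus PTK7-2. In PTK7-2 minus controls 0 of the 10 exporters passed, beside 2.15% of all genes. Of 14 zinc importers, 2 passed as higher with PTK7-1 than with PTK7-2, SLC39A6 and SLC39A9, beside 1.94% of all genes in that direction. The list as a whole did not go that way: 9 of the 14 had lower values with PTK7-1, beside 10036 of all 18404 genes. An unadjusted p under 0.05 was reached by 4 lower and 2 higher, beside 10.1% and 8.22% of all genes. The median of the list was -0.09, beside -0.02 over all genes. SLC39A7, at -0.65 ± 0.16, and SLC39A3, at -0.50 ± 0.15, had the order of MT2A, with PTK7-1 lowest and PTK7-2 highest in both lines, and did not pass (limma adjusted p = 0.0777 and 0.127). These 4 genes were chosen after their values were seen. SLC39A6, a zinc importer of the plasma membrane, had 9.48 with PTK7-1 and 8.22 with PTK7-2 in H1299, against 9.05 with GFP and 9.30 with LUC. In H2009 it had 8.73 with PTK7-1 and 7.57 with PTK7-2, against 8.37 with both controls. PTK7-2 was lowest in each line, which is the reverse of the order of MT2A. PTK7-1 minus PTK7-2 was 1.21 ± 0.14 for SLC39A6 and 0.74 ± 0.15 for SLC39A9 (limma adjusted p = 0.00827 and 0.0396), and PTK7-2 minus controls was -0.88 ± 0.12 for SLC39A6 (0.0149). The direct SLC39A6 call was lost without PTK7-1 in either line (limma adjusted p = 0.0870 in H1299 and 0.0604 in H2009) or PTK7-2 in H1299 (0.0511). Its call against the controls was lost without GFP in either line (0.0797 in H1299 and 0.0725 in H2009), or LUC (0.0592) or PTK7-2 (0.0822) in H1299. That of SLC39A9 was lost in each of the 8 omissions, with adjusted p between 0.0566 and 0.216.

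Of 8 measured copper genes and 7 measured glucocorticoid-induced genes, 0 passed in any of the 3 hairpin comparisons; an unadjusted p under 0.05 was reached by 1 of the copper genes and 2 of the glucocorticoid genes in PTK7-1 minus PTK7-2, beside 18.3% of all genes. In the averaged knockdown comparison 0 genes of any of these lists passed. The 3 copper genes with the smallest unadjusted p in it were SLC31A2 at 0.46 ± 0.11, SLC31A1 at -0.28 ± 0.10 and ATP7B at 0.34 ± 0.14. Among exporters these were SLC30A4 at -0.48 ± 0.13, SLC30A1 at -0.81 ± 0.33 and SLC30A5 at -0.10 ± 0.11. Among importers they were SLC39A13 at 0.23 ± 0.08, SLC39A8 at 0.51 ± 0.22 and SLC39A5 at 0.17 ± 0.13. The SLC39A13 value joins opposite signs, -0.13 ± 0.12 in H1299 and 0.60 ± 0.12 in H2009, and the difference between the lines did not pass (limma adjusted p = 0.848). Among glucocorticoid-induced genes they were KLF9 at 0.21 ± 0.12, ERRFI1 at -0.35 ± 0.22 and TSC22D3 at -0.20 ± 0.20. For the stress genes described next they were HMOX1 at 1.40 ± 0.19, BAG3 at 0.31 ± 0.12 and HSPB1 at -0.17 ± 0.17. For the other MTF1 targets they were PGF at 0.42 ± 0.11, SLC30A1 as above and SELENOW at 0.34 ± 0.18, and for the further metallothionein copies MT1DP at -0.12 ± 0.20, MT1H at -0.05 ± 0.14 and MT4 at 0.06 ± 0.20. Of 6 measured stress genes that heavy metals induce, 2 had both PTK7 arrays above both control arrays in both lines, beside 4.93% of all genes. They were HMOX1, the haem oxygenase gene, and BAG3. HSPB1 was the only one of the 6 with PTK7-1 lowest in both lines, an order seen in 11.3% of all genes. HMOX1 had 10.05 with PTK7-1 and 9.33 with PTK7-2 in H1299, against 7.50 with GFP and 8.12 with LUC. In H2009 it had 10.34 with PTK7-1 and 10.36 with PTK7-2, against 9.35 with GFP and 9.50 with LUC. The difference from the controls was 1.57 ± 0.27 with PTK7-1 and 1.22 ± 0.27 with PTK7-2 (limma adjusted p = 0.0457 and 0.0735), and the first was lost in each of the 8 omissions, with adjusted p between 0.0532 and 0.266. Without PTK7-1 in H1299 it stood at 1.01. The PTK7-2 difference passed without the PTK7-1 array of either line (limma adjusted p = 0.0395).

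**Figure D4:**
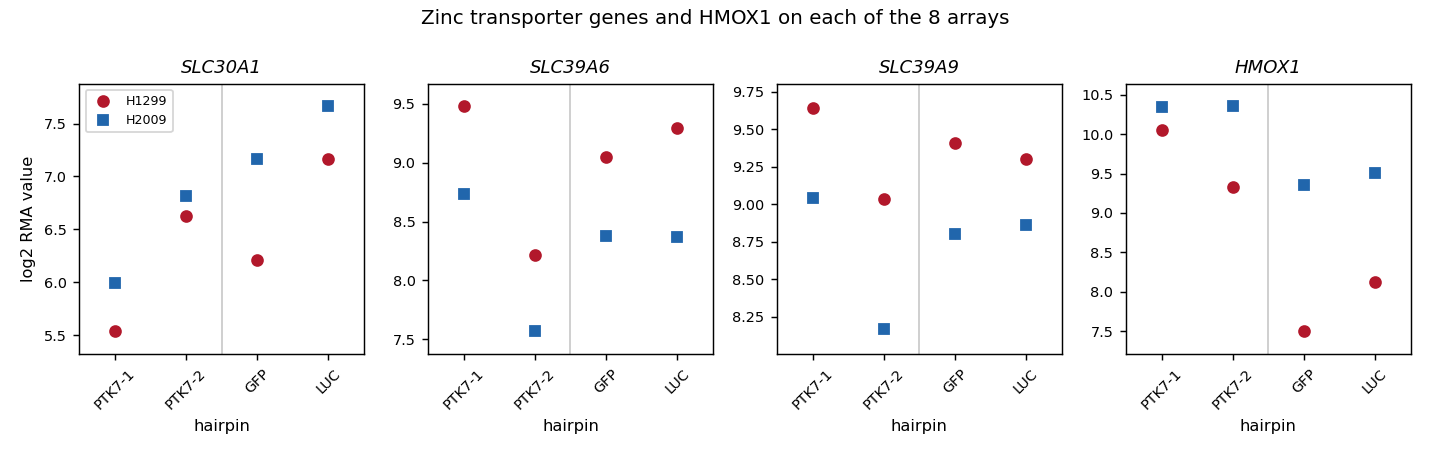
SLC30A1, SLC39A6, SLC39A9 and HMOX1 on each array, with the log2 RMA value on the vertical axis (scaled per gene) and the hairpin on the horizontal axis; red circles are H1299 and blue squares are H2009, 1 array per point. SLC30A1 is lowest with PTK7-1, SLC39A6 and SLC39A9 are lowest with PTK7-2, and HMOX1 is higher with both PTK7 hairpins than with both controls.

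To see how the family varied together, each array's value was set against its line's mean and correlated with MT2A over the 8 arrays. The arrays share their normalization and come as 2 arrays per hairpin, so they are not 8 independent points. Pearson r was 0.98 for MT1G, 0.94 for MT1X, 0.90 for MT1E and MT1F and 0.78 for MT1M. It was 0.44 for MTF1 and 0.03 for MT3. The second MT2A probe set had 11.25 with PTK7-1 and 12.20 with PTK7-2 in H1299, against 11.75 with GFP and 11.78 with LUC, the order of the first. Among 2144 other genes that spanned at least 1 log2 unit, the closest to MT2A were PPIF, MPP1, ILK, RING1 and KIFAP3, with r from 0.97 to 0.99. PPIF, a mitochondrial cyclophilin gene, had 8.90 with PTK7-1 and 10.13 with PTK7-2 in H1299, against 9.60 with GFP and 9.62 with LUC. The genes most opposed were HOMER1, NAB1, WWC2, LIMS1 and OGFRL1, with r from -0.99 to -0.97. HOMER1, a scaffold gene of synapses, had 7.75 with PTK7-1 and 6.63 with PTK7-2 in H1299, against 7.19 with both controls. These genes were ranked by likeness to MT2A, so their order over the hairpins follows from the choice.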

How the data were processed

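Total RNA was the source material, biotin was the label, and 8 Affymetrix arrays were used. The authors deposited 1 log2 value for each probe set and array; R 2.14.0 and RMA are named in the submitters' processing notes. The number of arrays limits the precision. The array held 32321 probe sets, and the platform annotation paired 19158 with exactly 1 symbol and 1388 with more, leaving 11775 unnamed here; 19128 single symbols matched the gene table by gene ID. Array medians lay between 5.31 and 5.41, and Pearson r within groups between 0.981 and 0.997.

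Tests used limma 3.58.1 under R 4.3.3 (empirical Bayes, Benjamini-Hochberg over 18404 genes, threshold 0.05): a mean per group for knockdown and line differences, and hairpin plus line for hairpin differences. Both lines received the same hairpins, and arrays of a hairpin deviated together between lines (r = 0.407 for PTK7 and 0.230 for control hairpins), so a replicate block was also fitted. The fits were tested on simulated data. The simulated noise was drawn separately for each array, so deviations shared by a hairpin between lines were not part of that noise. Members and gene lists were chosen with earlier results of these data known. The text names the members, PTK7, the 3 genes per list with the smallest unadjusted p where a list is described, the 5 genes at each end of likeness to MT2A, and genes said to be chosen later. Plots used matplotlib 3.10.9 (Python 3.11.15).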

Additional observations from a re-analysis of the deposited data

How the results depend on the processing

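Counts of the 8 genes that passed were recomputed after median centring, after quantile normalization, without the dimmest 40% of genes (which drops MT1M), with probe sets averaged per gene, with a trended prior, with the hairpin as a replicate block and each array left out. With the trended prior the count for PTK7-1 minus controls was 5 and for PTK7-2 minus controls 1. Leaving out each array gave 0 to 5 genes for PTK7-1 minus PTK7-2, 0 to 2 for PTK7-1 minus controls and 1 to 2 for H1299 minus H2009. With the hairpin as a fixed or random replicate block the count stayed 0 in the knockdown comparisons for the 8 genes; the block was run for these comparisons alone. Over all genes the fixed block called 149 for the averaged knockdown, against 0 without it, and 4 against 1 in H1299. Each hairpin belongs either to PTK7 or to the controls, so the fixed block takes the spread between hairpins of a group out of the error. Its calls therefore hold for these hairpins alone. The trended prior called 373 genes for PTK7-1 minus controls and removal of dim genes 348, against 226. The trended prior also called 3 genes for the averaged knockdown. The difference between lines had 1 gene under either block and the trended prior, against 0.

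MT3 turned to 0.013 for PTK7-1 minus PTK7-2 under median centring. Leaving out each array turned the sign of averaged knockdown values, within -0.84 to 0.21 for MT1X, -0.22 to 0.16 for MT2A, -0.24 to 0.17 for MT1G and -0.24 to 0.074 for MT1M; in the fits without a PTK7-1 array the average leans on PTK7-2. It did so for PTK7-1 minus PTK7-2 within -0.24 to 0.21 for MT3, -0.21 to 0.91 for HMOX1 and -0.46 to 0.25 for PTK7, and for PTK7-2 minus controls within -0.036 to 0.29 for MT1M and -0.084 to 0.37 for MT3. Of genes outside the 8, HMOX1 (PTK7-1 minus controls) and MT4 did not pass after quantile normalization (adjusted p = 0.0644 and 0.0519), nor MT1DP after median centring (0.0502). The cause of these changes was not tested.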
